A study of Homo sapiens with 8 samples.

Results

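HT29 cells, an established human colorectal adenocarcinoma line of epithelial origin, were compared between growth as multicellular spheroids (MCS) and growth as a monolayer (2D) by small RNA sequencing. The 4 libraries examined were HT29 2D replicates 1 and 2 and HT29 MCS replicates 1 and 2, out of 8 in the series. The others come from a second colorectal line, DLD1, grown in RPMI medium and seeded at 35000 cells in 2D and 7000 a well in MCS. All HT29 cultures were kept for 6 days in DMEM with 10% fetal bovine serum. The 2D cells were seeded at 100000 in a 25 cm2 flask, and the MCS at 3500 cells in each round-bottom well coated with 1% agarose, so that the cultures also differed in seeding and vessel. Of 1780 human miRNAs in the count table, 1636 had at least 1 count in HT29, and 301 averaged 10 CPM, that is counts per 1000000 of the library total, or more across these libraries and are described here. The weakest of them was miR-570-3p at a mean of 10.4 CPM, and the strongest left out was miR-548d-3p at 9.77 CPM. The library kit was version 2 for HT29 and version 3 for DLD1, so kit, medium, seeding and cell line cannot be told apart. The labels give the replicates only a number, so p-values measure the spread between these libraries, which may be technical.

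A miRNA is a short RNA cut from a hairpin precursor, each of whose arms, 5p and 3p, can give a mature strand. The mature strand guides a silencing complex to messenger RNAs that pair with its seed, the bases 2 to 8 from its 5′ end, and miRNAs with the same seed form a family that can recognise shared targets. In the interior of a spheroid oxygen and nutrients are limited, and miR-210 is the best known miRNA induced by low oxygen. In intestinal epithelium the families miR-192/215, miR-194 and miR-200 are prominent, the last through repression of the transcription factors ZEB1 and ZEB2.

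Mature sequences are given for the miRNAs on which the comparisons turn, as RefSeq gives them (GRCh38.p14; 269 of the 301 matched), 5′ to 3′ and with the seed in capitals. In the first set, each MCS library lay above each 2D library:
miR-1246: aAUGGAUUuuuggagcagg
miR-4485-3p: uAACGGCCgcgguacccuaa
miR-210-3p: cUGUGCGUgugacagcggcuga
miR-192-5p: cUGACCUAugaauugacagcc
miR-215-5p: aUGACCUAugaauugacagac
miR-194-5p: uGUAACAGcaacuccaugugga
miR-142-5p: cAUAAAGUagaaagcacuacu
miR-142-3p: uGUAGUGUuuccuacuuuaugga
miR-338-3p: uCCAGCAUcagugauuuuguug
miR-181d-5p: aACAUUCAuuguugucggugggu
miR-181b-5p: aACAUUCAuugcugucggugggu
miR-29c-3p: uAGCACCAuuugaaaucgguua
miR-29b-3p: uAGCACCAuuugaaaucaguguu
miR-378c: aCUGGACUuggagucagaagagugg
miR-30a-5p: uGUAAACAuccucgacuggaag
miR-301a-3p: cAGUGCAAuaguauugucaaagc
miR-301b-3p: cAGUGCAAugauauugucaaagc
In the second set, each MCS library lay below each 2D library, except for miR-99b-5p, which is added because it has the seed of miR-100-5p:
miR-100-5p: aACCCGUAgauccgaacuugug
miR-99b-5p: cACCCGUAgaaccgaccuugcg
miR-934: uGUCUACUacuggagacacugg
miR-452-5p: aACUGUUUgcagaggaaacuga
miR-205-5p: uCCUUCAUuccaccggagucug
miR-4454: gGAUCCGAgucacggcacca
The third set holds the most abundant miRNAs, and pairs that are reverse complements of each other and could take up the same reads:
miR-10a-5p: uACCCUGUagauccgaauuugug
miR-21-5p: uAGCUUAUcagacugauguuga
miR-3529-3p: aACAACAAaaucacuagucuucca
miR-7-5p: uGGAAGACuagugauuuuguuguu
miR-103a-3p: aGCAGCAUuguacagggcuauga
miR-103b: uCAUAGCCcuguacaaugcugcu
Among the 269 matched miRNAs there were 219 distinct seeds, of which 29 were shared by at least 2 miRNAs, covering 79 miRNAs in all.

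The libraries held 10495634 and 26211524 miRNA counts in 2D and 10745232 and 17182624 in MCS, replicate 1 first in each case. All of the 301 miRNAs were at or above 10 CPM on average, but within a library it was reached by 236 and 296 of them in 2D and by 270 and 297 in MCS, replicate 1 first. The 9 colon epithelium markers, namely miR-192, miR-194, miR-215, miR-375 and the miR-200 members, summed to 73190 to 280400 CPM, so that markers of the labelled epithelium were present. The 6 mesenchymal markers summed to 1.24 to 3.82 CPM.

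The libraries differed more by replicate number than by culture. miR-10a-5p, which lies in the HOXB cluster and is abundant in colon, took 47.3% and 38.5% of counts in 2D and MCS replicate 1, but 10.6% and 6.57% in 2D and MCS replicate 2. In the libraries numbered 2 the leading miRNA was miR-21-5p, a miRNA abundant in many carcinomas, at 28.1% and 24.0%. miR-200b-3p held 3.20% and 3.67% of counts in the libraries numbered 1 and 11.6% and 11.1% in those numbered 2, but shares of 1 library depend on each other, and after upper quartile scaling it was only 1.14 times higher in number 2 in 2D and 1.45 times higher in MCS. Of the sum of squares of log2 levels over the 301 miRNAs, the replicate number accounted for 59.8%, the culture for 32.7% and the remainder for 7.51%.

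**Figure D1:**
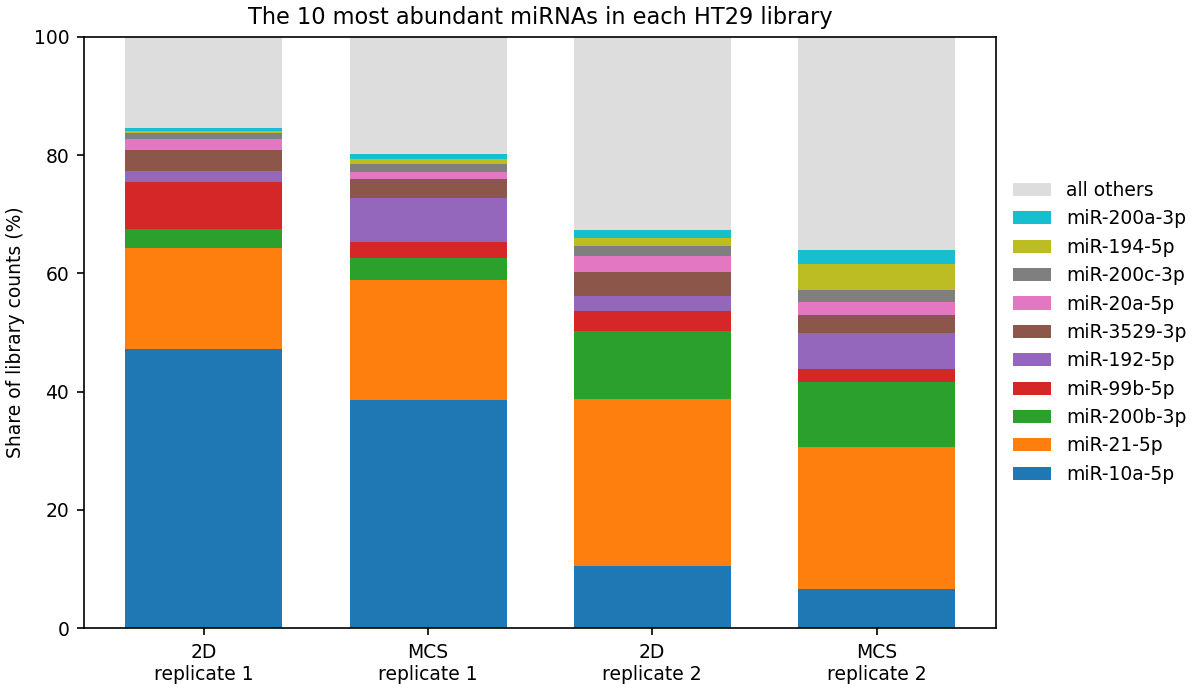
Share of library counts (%) taken by the 10 most abundant miRNAs (coloured) and all others (grey) in the 4 HT29 libraries, ordered by replicate number. miR-10a-5p takes 47.3% and 38.5% in the libraries numbered 1 and 10.6% and 6.57% in those numbered 2.

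Levels below are normalized CPM, that is counts divided by the library total after upper quartile scaling, on the CPM scale. Since 1 miRNA took up to 47.3% of a library, normalized levels do not sum to the same total in each library. Normalized miR-10a-5p was at 904671 and 63720 in 2D, replicate 1 first, and at 519885 and 42259 in MCS. It was 14.2 times higher in replicate 1 than in replicate 2 in 2D and 12.3 times higher in MCS, while MCS stood at 0.575 times 2D within number 1 and at 0.663 times within number 2. miR-10b-5p, a close paralogue, was 16.9 and 15.6 times higher in the libraries numbered 1. Its counts were 0.0221% to 0.0335% of those of miR-10a-5p in all 4 libraries, and whether they were misassigned reads of miR-10a-5p was not tested.

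At least 2-fold differences between the replicate numbers, in the same direction in both cultures, were found for 68 of the 301 miRNAs, with 45 (15% of those tested) higher in number 1 and 23 (7.64%) higher in number 2. This split depended on the scaling and turned round under some: it was 35 to 30 with RLE factors, 33 to 42 with TMM factors and 6 to 144 with library totals alone. Among those higher in number 1 were miR-1-3p, a muscle miRNA, 7.20 times in 2D and 6.70 times in MCS, and miR-183-5p of the sensory cluster miR-183/96/182, 12.0 and 4.40 times. miR-500a-3p was 7.50 and 4.46 times higher, and miR-365a-3p 7.65 and 4.39 times. The other muscle markers did not go with miR-1-3p. miR-133a-3p was at 0.286 and 0.992 CPM of library total in 2D and at 0.279 and 2.04 in MCS, replicate 1 first, and miR-206 had 0 counts. Among those higher in number 2 were miR-140-5p, 5.79 times in 2D and 8.35 times in MCS, and miR-32-5p, 6.42 and 5.53 times. let-7i-3p was 4.47 and 5.21 times higher in number 2, and miR-374c-3p 4.51 and 5.22 times. In 113 miRNAs (37.5%) both libraries numbered 1 lay above both numbered 2, and in 81 (26.9%) below, against 54 (17.9%) with both MCS libraries above both 2D libraries and 32 (10.6%) with both below. Neither the GC content nor the length of the mature sequence followed these differences closely: over the 269 matched miRNAs Spearman's rho with the mean log2 ratio of number 1 to number 2 was -0.05 for GC content and 0.01 for length, as a description over miRNAs that share their libraries.

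With this spread, no miRNA of the 301 (0%) passed the comparison of MCS with 2D in edgeR's quasi-likelihood test, which required a Benjamini-Hochberg adjusted p under 0.05 and at least a 1.5-fold difference. The smallest adjusted p was 0.553. At an unadjusted p under 0.05, 12 miRNAs (3.99%) differed by at least 1.5-fold, 9 (2.99%) higher and 3 (0.997%) lower in MCS. With the upper quartile taken over the 301 miRNAs the unadjusted split was 7 higher to 7 lower. The classical exact test of edgeR called 5 miRNAs and DESeq2 12. Without 2D replicate 2 the quasi-likelihood test called 2, miR-1246 and miR-100-5p, and the unadjusted count was 22. Without 2D replicate 1 it called miR-1246 alone. The biological coefficient of variation was 0.521 in HT29, against 0.193 in the DLD1 libraries, and the median standard error of a log2 fold change was 0.54. With 2 libraries against 2 an exact permutation test of a single miRNA cannot give a two-sided p below 0.3333. The miRNAs are therefore described by their values in each library and by the ratio of MCS to 2D within each replicate number.

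The ratio was at least 1.5 within both numbers for 36 miRNAs (12%) and at least 1.5-fold lower within both for 20 (6.64%). In 3 miRNAs, miR-362-5p, miR-561-5p and miR-941, the ratios passed 1.5-fold in opposite directions. The split of 36 higher to 20 lower depended on the scaling: it was 51 to 9 with library totals alone and 20 to 39 with the upper quartile taken over the 301 miRNAs. Within number 1 alone 58 miRNAs were at least 1.5-fold higher and 66 lower, and within number 2 alone 67 higher and 29 lower. At any size, 116 miRNAs (38.5%) were higher in MCS within both numbers, 94 (31.2%) lower within both, and 91 had ratios in opposite directions. Over the 301 miRNAs the log2 ratios of number 1 and number 2 had a Pearson's r of 0.68 and a Spearman's rho of 0.59, a description over miRNAs that share these 4 libraries.

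**Figure D2:**
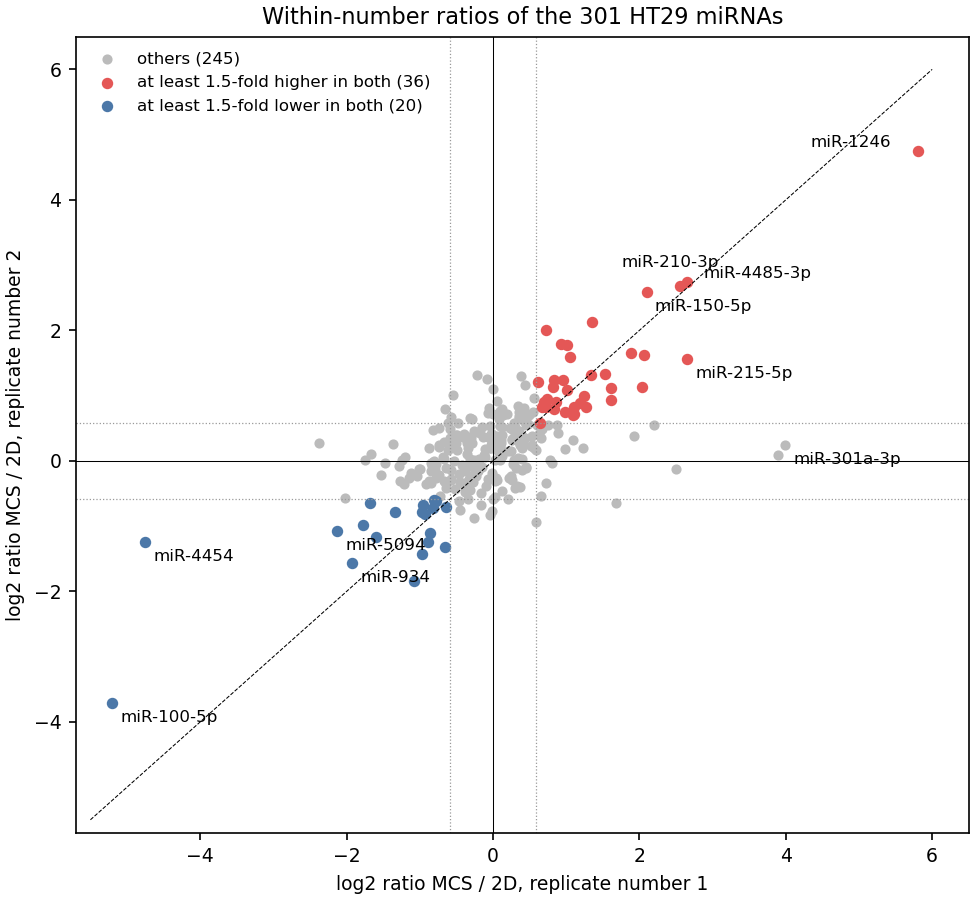
Log2 ratio of MCS to 2D within replicate number 1 (x axis) and replicate number 2 (y axis) for the 301 HT29 miRNAs, 1 point each; dotted lines mark 1.5-fold and the dashed line equal ratios. The 36 red points are at least 1.5-fold higher and the 20 blue points at least 1.5-fold lower within both numbers, and miR-301a-3p and miR-301b-3p lie far out along the x axis but not the y axis.

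miR-210-3p, the miRNA induced by low oxygen, was at 97.8 and 165 normalized CPM in 2D replicates 1 and 2 and at 573 and 1058 in MCS replicates 1 and 2. The ratio was 5.86 within number 1 and 6.40 within number 2, with both MCS libraries above both 2D libraries. The fitted log2 fold change was 2.63 ± 0.57 (SE, 2 libraries a group; unadjusted p 0.006044 and adjusted p 0.553, quasi-likelihood test over all 301). Of the 14 alternative settings 4 called it: the exact test of edgeR, DESeq2, the unfiltered fit and a fit that pairs libraries by replicate number. The others did not. Its smallest adjusted p, 5.8e-11 in the quasi-likelihood test, came from that pairing, which the labels do not state.

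By the smaller of the ratios within each number, miR-1246 and miR-4485-3p ranked highest of the 301. miR-1246 was at 9.12 and 3.86 normalized CPM in 2D replicates 1 and 2, and at 513 and 104 in MCS replicates 1 and 2. These values rest on 50 and 168 counts in 2D and 4084 and 2777 in MCS. The ratios were 56.2 and 26.9. miR-4485-3p was at 7.30 and 6.39 in 2D and at 45.9 and 42.8 in MCS, with ratios of 6.30 and 6.71. By library total, miR-1246 was below the limit set for mean CPM in both 2D libraries, and miR-4485-3p in 2D replicate 1. These miRNAs met that limit through their MCS levels, which also enter the ratios, so their rank is in part fixed by the filter. The printed sequence of miR-1246 is found whole in 6 annotated U2 small nuclear RNA genes or copies, and that of miR-4485-3p in MT-RNR2, the mitochondrial large ribosomal RNA. Whether reads of these RNAs were counted was not tested. Of 25 miRNAs listed as resembling structural RNAs, 6 were among the 301. Of these, 3 were higher and 1 was lower in MCS within both numbers, against 38.5% and 31.2% of the 301. The lower one, miR-4454, was at 1635 and 928 in 2D and at 60.8 and 391 in MCS. It was thus 26.9-fold lower within number 1 and 2.38-fold lower within number 2. The others, miR-1260a, miR-1260b and miR-4286, overlapped between the cultures and lay between 75.3 and 244.

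Among the miRNAs of intestinal epithelium, those of miR-192, miR-194 and miR-215 had higher values in MCS, with none passing the adjusted test. All 5 tested of the 6 strands listed for miR-192, miR-194 and miR-215 were at least 1.5-fold higher in MCS within both numbers, under each of the 5 scalings, against 36 of the 301 miRNAs (12%). Their median log2 fold change was 1.47, against 0.03 over the 301. These strands include both arms of miR-192 and of miR-194, and the study places miR-194 in clusters with miR-192 and with miR-215. They do not count as 5 separate miRNAs. miR-192-5p was at 34452 and 15588 normalized CPM in 2D and at 99608 and 39033 in MCS, with ratios of 2.89 and 2.50. MCS replicate 2 lay only just above 2D replicate 1. miR-215-5p, which has the same seed, was at 380 and 360 in 2D and at 2399 and 1062 in MCS, with ratios of 6.31 and 2.95 (log2 fold change 2.23 ± 0.56, SE; quasi-likelihood adjusted p 0.642). miR-194-5p was at 5595 and 7884 in 2D and at 10634 and 27339 in MCS, with ratios of 1.9 and 3.47. The passenger strands miR-192-3p and miR-194-3p were scarce, and their groups overlapped, with replicate 1 above replicate 2 in both cultures. MIR192 lies at chr11:64658609-64658718 (GRCh37) in an exon of the non-coding RNA MIR194-2HG. MIR215 lies at chr1:220291195-220291304, opposite an intron of IARS2. Together the seed shared by miR-192-5p and miR-215-5p held 1.82% and 2.65% of counts in 2D and 7.56% and 6.24% in MCS.

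miR-375, a miRNA of endocrine and other secretory cells, was at 573 and 387 normalized CPM in 2D and at 2125 and 1221 in MCS, with ratios of 3.71 and 3.15 (log2 fold change 1.80 ± 0.51, SE; quasi-likelihood adjusted p 0.642). Both MCS libraries lay above both 2D libraries. MIR375 lies at chr2:219866362-219866431 (GRCh37), outside annotated genes. Of the 9 colon epithelium markers, 7 were higher in MCS within both numbers, against 38.5% of the 301, and none was lower, against 31.2%. With other scalings the count of higher ones was 7 or 8, and 1 or 2 were lower under 3 of the 4. These markers are miR-375 and strands of miR-192, miR-194, miR-215 and the miR-200 family, so the count is not separate from their results.

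The members of the miR-200 family, which maintain epithelial character, had no direction that all of them shared. In all, 5 of its 9 strands were higher in MCS within both numbers and 1 was lower, against 38.5% and 31.2% of the 301 miRNAs. But with the upper quartile over the 301 miRNAs 3 strands were higher and 4 lower. With TMM factors 4 were higher and 3 lower, and with library totals alone 6 were higher and 0 lower. miR-141-3p was at 1438 and 1329 in 2D and at 2856 and 2246 in MCS, with ratios of 1.99 and 1.69. miR-200a-3p, which shares its seed, was at 9673 and 8467 in 2D and at 12314 and 15239 in MCS. miR-200b-3p, of the other seed in the family, overlapped between the cultures, at 61294 and 69774 in 2D and 49447 and 71549 in MCS. Among other epithelial miRNAs, miR-135b-5p was at 33.6 and 123 in 2D and at 59.9 and 290 in MCS, and miR-31-5p at 2519 and 3552 in 2D and 2954 and 5060 in MCS. In both of these the libraries numbered 2 were higher than those numbered 1 in each culture, and the groups overlapped.

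miR-142 and miR-150, which are known from blood cells, were also higher in MCS. miR-142-5p was at 23.5 and 34.9 normalized CPM in 2D and at 98.4 and 108 in MCS, with ratios of 4.18 and 3.09. miR-142-3p was at 11.1 and 25.9 in 2D and at 28.4 and 114 in MCS, with ratios of 2.55 and 4.38. MCS replicate 1 of miR-142-3p lay close to 2D replicate 2. miR-150-5p was at 12.0 and 6.83 in 2D and at 51.6 and 40.9 in MCS, with ratios of 4.29 and 6.00. By library total, miR-150-5p was at 6.29 and 11.3 CPM in 2D, below the limit set for mean CPM in replicate 1. It met that limit through its MCS levels, which also enter the ratios. Of the other blood cell markers, miR-451a, of red cells, was at 0 to 0.233 CPM of library total and miR-144-3p at 0.0763 to 0.291 CPM. With 0 to 5 counts in a library, no difference between the cultures could be read for either. The summed blood cell markers, of which miR-223-3p was not analysed here, were 12.2 and 54.6 CPM in 2D and 59.5 and 241 in MCS, mostly miR-142-3p and miR-150-5p.

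**Figure D3:**
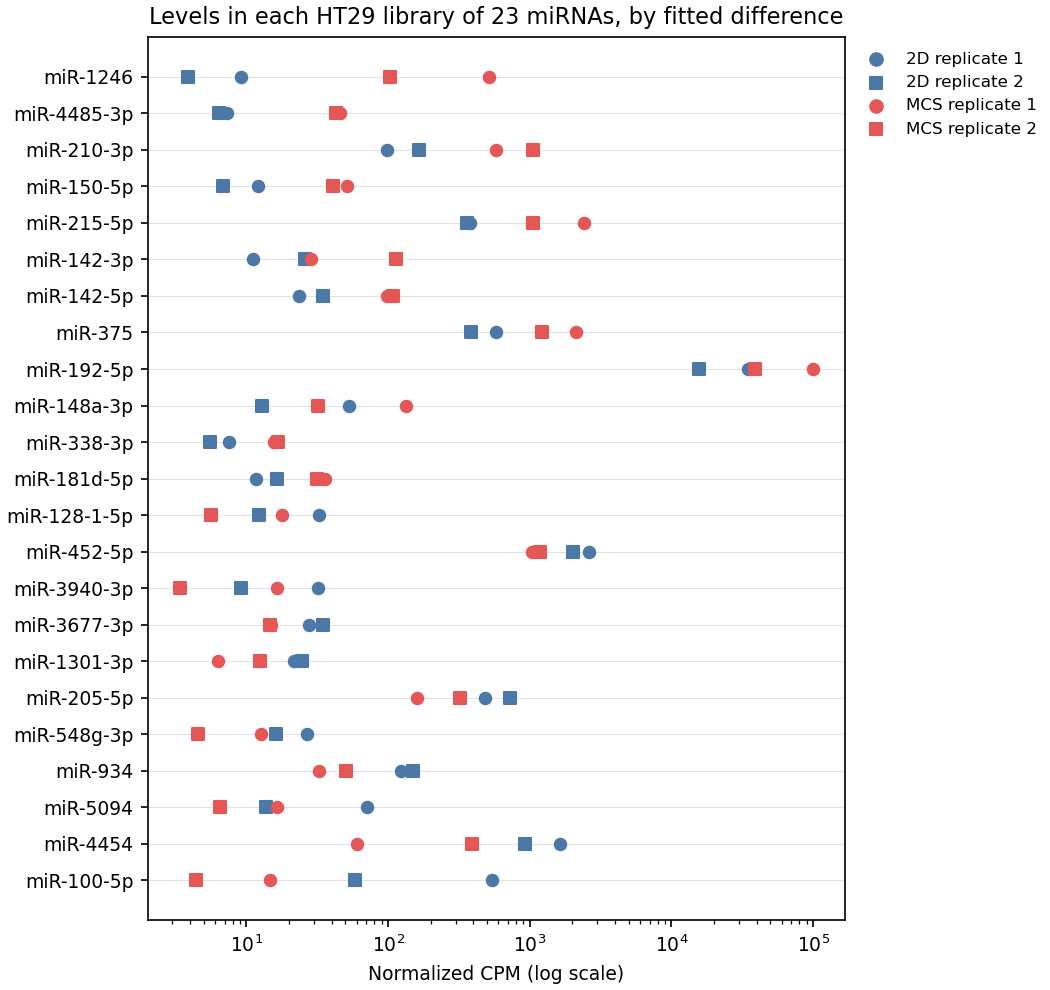
Normalized CPM (log scale) of 23 miRNAs in the 4 HT29 libraries, ordered by fitted difference; blue marks 2D, red MCS, circles replicate 1 and squares replicate 2. miR-210-3p stands at 97.8 and 165 in 2D against 573 and 1058 in MCS, and miR-100-5p at 539 and 58.0 against 14.6 and 4.42.

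miR-148a-3p, which is abundant in digestive tissues, had ratios of 2.53 and 2.50, but its groups overlapped, at 52.7 and 12.9 in 2D and at 133 and 32.2 in MCS. The libraries numbered 1 were 4.09 times higher in 2D and 4.14 times higher in MCS. Several smaller families had most of their tested strands higher in MCS within both numbers, against 38.5% of the 301 miRNAs, and no family was tested as a set. In the miR-378 family, hosted in part by an intron of PPARGC1B, a regulator of energy metabolism, all 4 tested strands were higher within both numbers and 3 at least 1.5-fold. miR-378c was at 58.0 and 56.4 in 2D and at 140 and 99.4 in MCS. miR-378a-5p was at 14.0 and 13.3 in 2D and at 31.9 and 24.7 in MCS. Each of the 4 was higher within both numbers under all 5 scalings, but with the upper quartile over the 301 miRNAs only 1 was at least 1.5-fold higher. miR-378c shares its seed with miR-378a-3p, and whether their reads were told apart was not tested.

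In the miR-29 family, which represses collagen genes, 3 of 4 tested strands were at least 1.5-fold higher within both numbers, against 12% of the 301. Under each of the other scalings 2 were. miR-29c-3p was at 15.3 and 51.3 in 2D and at 62.8 and 113 in MCS, and miR-29b-3p at 32.3 and 38.7 in 2D and at 57.2 and 85.0 in MCS. miR-29a-3p, far more abundant and with the same seed, overlapped, at 861 and 1944 in 2D and at 759 and 2608 in MCS. Summed over the seed, the level was 0.967 times that of 2D within number 1 and 1.38 times within number 2.

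In the miR-181 family 4 of 5 tested strands were higher within both numbers and 1 was lower. With TMM factors, or with the upper quartile over the 301 miRNAs, 3 were higher. miR-181d-5p was at 11.7 and 16.3 in 2D and at 35.8 and 31.3 in MCS, and miR-181b-5p at 527 and 691 in 2D and at 800 and 1012 in MCS. miR-181d-5p differs from miR-181b-5p by 1 base and held 2.22% to 4.47% of its counts. In the clusters of miR-23, miR-27 and miR-24, 8 of 9 tested strands were higher within both numbers, with 2 at least 1.5-fold, but only 5 were higher with the upper quartile over the 301 miRNAs. miR-27a-3p was at 1646 and 1734 in 2D and at 2992 and 3244 in MCS, and miR-24-3p at 1556 and 1838 in 2D and at 2472 and 3250 in MCS. For both of these the replicates lay closer together than the cultures. In the miR-30 family 4 of 7 tested strands were higher within both numbers and 1 was lower. miR-30a-5p was at 366 and 228 in 2D and at 789 and 403 in MCS.

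The members of the family of miR-130, miR-301 and miR-454 diverged by library. miR-301a-3p was at 17.5 and 106 in 2D and at 278 and 126 in MCS, with ratios of 15.9 within number 1 and 1.18 within number 2. miR-301b-3p had ratios of 14.9 and 1.06. In both, 2D replicate 1 stood alone and low. With the same seed, miR-130b-3p was at 53.1 and 52.6 in 2D and 63.3 and 65.4 in MCS, and miR-454-3p at 135 and 135 in 2D and 169 and 172 in MCS. A low value in 2D replicate 1 was also seen for miR-19a-3p, at 173 and 1302 in 2D and 796 and 1916 in MCS, and for miR-19b-3p, at 629 and 3116 in 2D and 2384 and 4064 in MCS. In the same cluster, miR-17-92, which MYC induces, miR-17-5p was at 8171 and 9228 in 2D and 4892 and 13110 in MCS. Both libraries numbered 2 lay above both numbered 1 in 6 of the 9 tested strands, miR-19a-3p, miR-19b-3p and miR-17-5p among them, and below in 2. Over the 301 miRNAs the shares were 26.9% above and 37.5% below. In MCS against 2D, 3 of the 9 were higher and 1 lower within both numbers, against 38.5% and 31.2% of the 301.

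**Figure D4:**
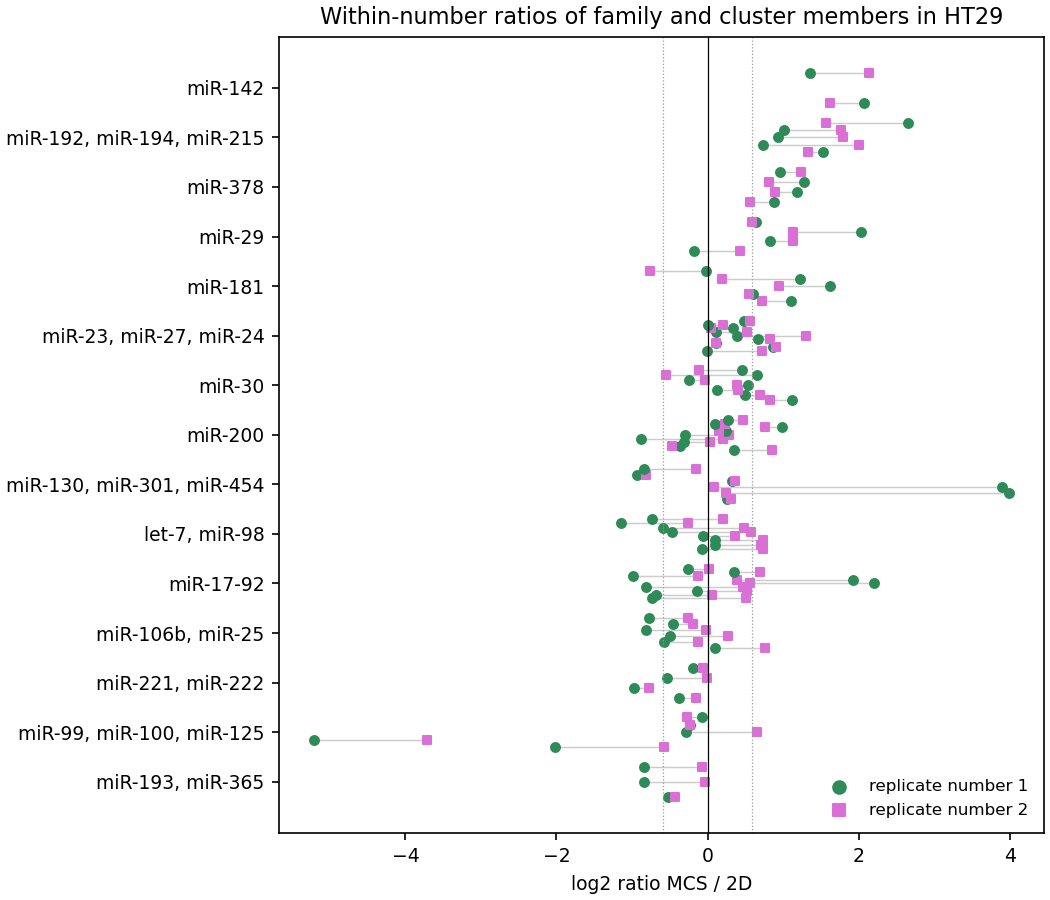
Log2 ratio of MCS to 2D within replicate number 1 (green circles) and number 2 (pink squares) for the members of 15 miRNA families and clusters, 1 line per strand; dotted lines mark 1.5-fold. The strands of miR-142, miR-192/194/215 and miR-378 lie to the right in both numbers, and the 4 strands of miR-221 and miR-222 to the left.

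Among the miRNAs lower in MCS, miR-100-5p ranked first by the smaller of the ratios. It was at 539 and 58.0 normalized CPM in 2D replicates 1 and 2 and at 14.6 and 4.42 in MCS replicates 1 and 2, so that it was 37.0-fold lower within number 1 and 13.1-fold lower within number 2 (log2 fold change -4.98 ± 1.39, SE; quasi-likelihood adjusted p 0.642). It rests on 2954 and 2525 counts in 2D and 116 and 118 in MCS. By library total, miR-100-5p was below the limit set for mean CPM in MCS replicate 2, and it met that limit through its 2D levels. miR-99b-5p, which has the same seed and was far more abundant, was at 151886 and 20008 in 2D and at 37401 and 13465 in MCS. The counts of miR-100-5p were 0.355% and 0.290% of those of miR-99b-5p in 2D and 0.0389% and 0.0328% in MCS. MIR100 lies at chr11:122022937-122023016 (GRCh37) in an intron of MIR100HG. In the miR-99/100/125 family 4 of 5 tested strands were lower within both numbers, against 31.2% of the 301 miRNAs. With library totals alone 2 of the 5 were. miR-125a-5p was at 2406 and 3285 in 2D and at 1969 and 5145 in MCS.

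miR-934, whose hairpin lies in an intron of VGLL1, was at 124 and 150 in 2D and at 32.6 and 50.7 in MCS, or 3.79-fold and 2.97-fold lower. miR-452-5p, from within an exon of GABRE, was at 2638 and 2032 in 2D and at 1045 and 1187 in MCS, or 2.52-fold and 1.71-fold lower. miR-205-5p, of squamous and basal epithelia, was at 483 and 722 in 2D and at 160 and 322 in MCS, or 3.03-fold and 2.24-fold lower. In all of these both MCS libraries lay below both 2D libraries. The scarcer miR-1301-3p, miR-3677-3p and miR-548g-3p also lay below in both MCS libraries, at 4.53 to 14.9 against 16.3 to 34.9 in 2D. miR-5094, miR-3940-3p and miR-128-1-5p were at least 1.5-fold lower within both numbers but overlapped between the cultures.

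All 4 strands of the cluster of miR-221 and miR-222, which represses the cell cycle inhibitor p27, were lower in MCS within both numbers, 1 of them, miR-221-5p, at least 1.5-fold. Over the 301 miRNAs 31.2% were lower within both numbers and 38.5% higher. miR-221-5p was at 1725 and 507 in 2D and at 879 and 295 in MCS. With library totals alone 2 of the 4 were lower within both numbers. In the miR-106b-25 cluster, in the gene MCM7, 4 of 6 strands were lower within both numbers and 1 was higher, with ratios no further than 1.5-fold within both. The 3 tested strands of miR-193b and miR-365 were lower within both numbers under all 5 scalings. Among them, miR-365a-3p and miR-365b-3p are identical in sequence and do not count as separate. The median ratio of the 3 was 0.559 within number 1 and 0.949 within number 2, and no strand was 1.5-fold lower within both. The let-7 family, which restrains RAS and HMGA2, was mixed: of 8 members 2 were higher and 1 lower within both numbers. Its summed level was 0.773 times that of 2D within number 1 and 1.26 times within number 2.

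The 10 most abundant miRNAs included miR-3529-3p, at 67158 and 24513 in 2D and at 42128 and 19801 in MCS. The printed sequences show that it is the reverse complement of miR-7-5p over 24 bases, and its counts were 3.28 to 4.97 times those of miR-7-5p. miR-103b is likewise the reverse complement of miR-103a-3p over 23 bases, and its counts stood at 105% of those of miR-103a-3p in all 4 libraries. miR-3184-3p and miR-423-5p, complementary over 23 bases, stood at 98.0% to 103%. The sources used here do not give whether strand was used in counting, so the members of these pairs cannot be told apart. miR-338-3p, at 7.48 and 5.49 in 2D and 15.6 and 16.6 in MCS, has such a partner as well, miR-3065-5p, over 22 bases. So has miR-24-3p, in miR-3074-5p over 20 bases, whose counts were 53.0% to 64.3% of those of miR-24-3p.

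Assignment is also uncertain for miRNAs of near-identical sequence. miR-365a-3p and miR-365b-3p are identical, and 1 base separates miR-29c-3p from miR-29a-3p, miR-30a-5p from miR-30e-5p, miR-27a-3p from miR-27b-3p, miR-19a-3p from miR-19b-3p and miR-500a-3p from miR-501-3p. The counts of miR-29c-3p were 1.78% and 2.64% of those of miR-29a-3p in 2D and 8.27% and 4.32% in MCS.

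A ratio of the 2 arms of a hairpin does not depend on the scaling. Arms were paired by name, and some mature strands come from more than 1 hairpin. Both arms averaged at least 10 CPM in 75 hairpins counted in this way, and in 65 of them the same arm led in all 4 libraries. The ratio of 5p to 3p counts differed by at least 1.5-fold in the same direction within both numbers in 14 hairpins (18.7%), 8 toward 5p in MCS and 6 toward 3p. In miR-338 it was 7.61 and 7.16 in 2D and 2.39 and 2.67 in MCS, with little difference between replicates. miR-338-3p was below 10 CPM of library total in both 2D libraries, so this hairpin met the limit through its MCS levels. Its 3p and 5p strands are also reverse complements of miR-3065 strands, over 22 and 19 bases, whose reads cannot be told apart from them. In miR-335, hosted by MEST, the 5p share was 2.59% and 6.39% in 2D and 5.80% and 18.9% in MCS. Its strands differed in direction, with miR-335-5p at 256 and 253 in 2D and at 345 and 568 in MCS, and miR-335-3p at 9617 and 3714 in 2D and at 5604 and 2435 in MCS. In miR-181a the 5p share was 73.7% and 83.3% in 2D and 86.0% and 93.3% in MCS, and in miR-181b 88.8% and 94.2% in 2D and 94.3% and 97.6% in MCS. Both of these 5p strands come from hairpins on chromosomes 1 and 9, but the 3p strands paired with them only from chromosome 1. These shares are therefore not those of a single hairpin. In miR-301a the ratio was 2.00 in 2D replicate 1, where the 5p arm led, and 0.383, 0.0659 and 0.183 in 2D replicate 2 and MCS replicates 1 and 2. The arms also differed between the replicate numbers: in 28 of the 75 hairpins the ratio differed at least 2-fold in the same direction in both cultures. For miR-10a it was 13.0 times higher in number 1 in 2D and 14.5 times higher in MCS, and for miR-423 6.13 and 6.90 times.

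**Figure D5:**
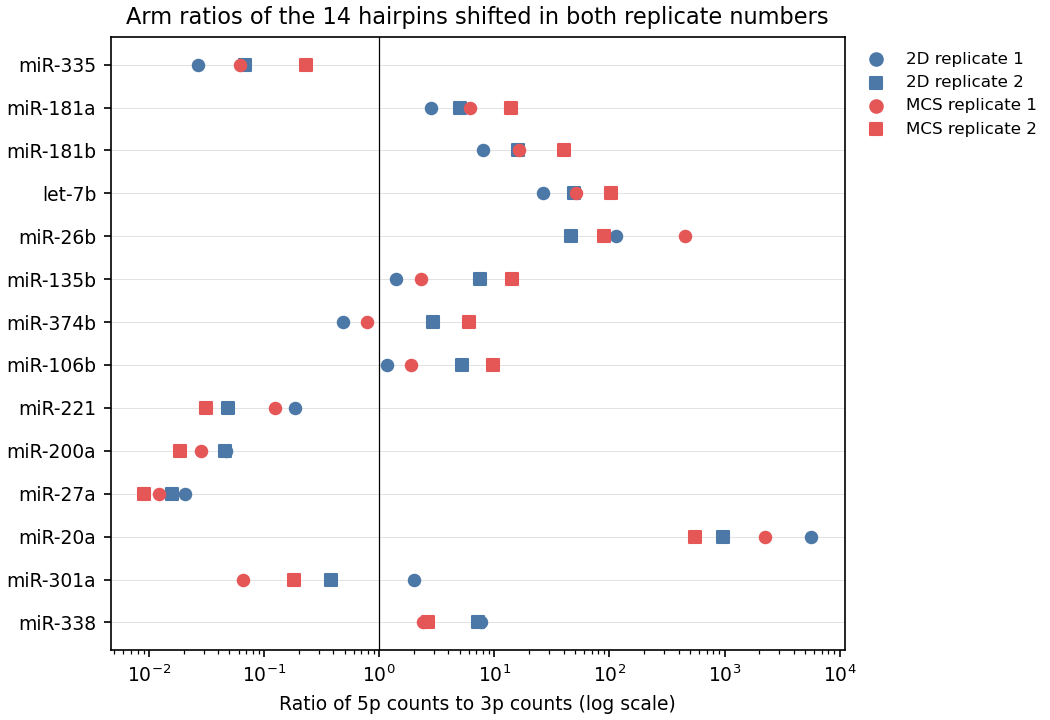
Ratio of 5p to 3p counts (log scale) in the 4 HT29 libraries for the 14 hairpins whose ratio differed at least 1.5-fold in the same direction within both replicate numbers; blue marks 2D, red MCS, circles replicate 1 and squares replicate 2, and the vertical line equal arms. In miR-338 the 2D libraries lie at 7.61 and 7.16 and the MCS libraries at 2.39 and 2.67.

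The DLD1 cultures differed from those of HT29 in medium, seeding and kit version too, and these cannot be told apart from the line. Whether the response to MCS growth in HT29 differed from that in DLD1 was tested as the interaction of line and culture over all 8 libraries and 250 miRNAs. None (0%) passed an adjusted p under 0.05 in the quasi-likelihood test, and 23 (9.2%) had an unadjusted p under 0.05. DESeq2 called 18. The smallest adjusted p was 0.178, for miR-30a-5p, with a log2 fold change of 1.01 in HT29 and -2.50 in DLD1. The next were miR-23b-3p, with 0.34 in HT29 and 1.96 in DLD1, miR-7974, with -1.03 and -3.13, miR-27b-3p, with 0.20 and 1.78, and miR-101-3p, with -0.17 and 1.41, all at an adjusted p of 0.202. For miR-215-5p the log2 fold change was 2.23 in HT29 and 0.05 in DLD1, and for miR-100-5p -4.98 and 0.14, both at the same adjusted p of 0.202. For miR-210-3p it was 2.63 in HT29 and 2.11 in DLD1, and the interaction term of the joint fit was 0.47 ± 0.59 (SE), smaller than its error.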

How the data were processed

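Small RNA of 8 libraries was sequenced with the NEXTflex small RNA kit on an Illumina HiSeq, as the study's methods state. The counts were made by the authors before they were deposited. Reads lost the adapter and 4 random bases, those shorter than 15 nt or of quality under 25 were removed, and the rest were aligned to GRCh37/hg19 and then to mature miRNAs of miRBase. The submitters' processing notes name CASAVA 1.8.3, cutadapt 1.11, Bowtie2 2.1.0 and edgeR 3.4.2. The counting program, its use of strand and its treatment of reads with several matches are not given in the sources used here. The 4 random bases were trimmed and not used to count molecules, so PCR copies count as reads.

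From the deposited counts, the 4 HT29 libraries were fitted with edgeR 4.0.16 (glmQLFit and glmQLFTest in R 4.3.3), with upper quartile factors over all miRNAs that had at least 1 count. Tests covered the 301 miRNAs that averaged 10 CPM or more, with Benjamini-Hochberg adjustment over all of them. A call needed an adjusted p under 0.05 and at least a 1.5-fold difference. The fit used no replicate term. Ratios within a replicate number are descriptions. The test against DLD1 used all 8 libraries. DESeq2 1.42.0, other scalings, other filters and the omission of each library were alternatives. The 2 sources of counts, a table of the series and a file per sample, differed in 0 of 12572 values. The miRNAs named are list members, the 10 highest and 10 lowest by the smaller within-number ratio, those at an unadjusted p under 0.05, the 10 most abundant, the 10 with the largest replicate differences, the 5 with the smallest interaction p and the 5 hairpins with the largest arm shifts, and any others were named after their values were seen. The miRNAs and the lists were chosen with earlier results of these data known. Hairpin positions come from the GENCODE annotation mapped to GRCh37.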

Additional observations from a re-analysis of the deposited data

Results flagged for a closer look

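Besides miRNAs, the count table holds 15 entries that name no miRNA and carry fields of an alignment header. They hold 2590 counts in HT29 2D replicate 2, or 0.00988% of that library, and 0 counts in the other libraries. They were flagged as a signal outside the main measurement and were left out of library totals and tests. With 2 libraries a group, no library could be tested as an outlier of its group.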

How the results depend on the processing

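With 2 libraries a group and the spread between them, 0 of the 301 miRNAs were called under TMM, RLE or library total factors, with the upper quartile taken across tested miRNAs alone (the second upper quartile here), when every library had to reach 10 CPM, or when all 8 libraries entered the fit. The exact test of edgeR called 5, DESeq2 12 and the unfiltered fit 15, and leaving out 1 library gave 0 to 2. With a replicate block 47 were called, 33 higher and 14 lower in MCS, 75 had an unadjusted p under 0.05 with a 1.5-fold difference, and 40 passed the interaction test. The labels state nothing that same-numbered libraries share. Their deviations went together, as the log2 ratios of number 1 to number 2 in 2D and in MCS had a Pearson's r of 0.79 across 301 miRNAs, and with 2 pairs this does not establish a pairing. The unadjusted count of 12 became 6 with library totals, 7 when each library had to reach 10 CPM, 31 with all 8 libraries, 35 with DESeq2 and 64 without a filter, and 10 to 22 with single libraries left out. The interaction test called 1 under TMM and 18 in DESeq2. The 36 miRNAs higher within both numbers became 20 under the second upper quartile and 21 when each library had to reach 10 CPM, and the 20 lower ones became 9 with library totals and 39 under the second upper quartile. The 68 that differed 2-fold between numbers became 150 with library totals. The 14 hairpins became 5 when each arm had to average 50 CPM. The median log2 fold change shifted by -0.07 under TMM, -0.01 under RLE, 0.13 with library totals and -0.24 under the second upper quartile. Of 1212 alternative values for 88 named miRNAs, 1062 kept their sign and were not called, 64 kept it and were called, and 86 had the opposite sign. With library totals, the fitted log2 fold change of opposite sign was 0.00093 for miR-200b-3p, 0.19 for miR-200c-3p, 0.19 for miR-500a-3p, 0.023 for miR-338-5p, 0.36 for miR-362-5p and -0.18 for miR-941. In the blocked fit, the fitted log2 fold change of opposite sign was 0.0098 for miR-500a-3p, -0.12 for miR-17-5p, 0.080 for miR-362-5p and -0.17 for miR-941. Under the second upper quartile, the fitted log2 fold change of opposite sign was -0.019 for miR-27b-3p, -0.087 for miR-1260a, -0.097 for miR-1260b, -0.26 for miR-17-5p, -0.071 for miR-29a-3p, -0.16 for miR-3065-5p, -0.070 for miR-3184-3p, -0.053 for miR-423-5p, -0.23 for miR-4286 and -0.16 for miR-941. Under TMM, the fitted log2 fold change of opposite sign was -0.0017 for miR-17-5p, -0.074 for miR-4286 and -0.11 for miR-941. Under RLE, the fitted log2 fold change of opposite sign was -0.010 for miR-4286 and -0.043 for miR-941. In the fit of all 8 libraries, the fitted log2 fold change of opposite sign was -0.0065 for miR-17-5p, -0.0092 for miR-4286 and -0.014 for miR-941. With single libraries left out, the log2 fold change spanned, for miR-148a-3p from -0.053 to 2.67, miR-3940-3p from -2.63 to 0.088, miR-10a-5p from -3.56 to 2.13, miR-21-5p from -0.72 to 0.33, miR-200b-3p from -0.43 to 0.10, miR-99b-5p from -2.71 to 0.34, miR-3529-3p from -1.24 to 0.33 and miR-20a-5p from -1.22 to 0.028. Further spans were, for miR-200c-3p from -0.56 to 0.47, miR-10b-5p from -3.53 to 2.71, miR-1-3p from -1.61 to 2.40, miR-140-5p from -1.61 to 2.33, miR-32-5p from -1.30 to 2.24, miR-374c-3p from -0.95 to 2.09, let-7i-3p from -2.12 to 0.91 and miR-500a-3p from -1.73 to 1.82. Next came, for miR-183-5p from -2.77 to 1.39, miR-365a-3p from -2.19 to 1.38, miR-27b-3p from -0.035 to 0.37, miR-101-3p from -0.44 to 0.015, miR-338-5p from -0.57 to 0.045, miR-335-3p from -1.49 to 0.11, miR-125a-5p from -0.56 to 0.83 and miR-1260a from -0.31 to 0.54. Others were, for miR-1260b from -0.53 to 0.66, miR-135b-5p from -0.42 to 2.29, miR-17-5p from -0.85 to 0.57, miR-221-5p from -1.95 to 0.20, miR-29a-3p from -0.91 to 0.88, miR-3065-5p from -0.26 to 0.38, miR-31-5p from -0.064 to 0.71 and miR-3184-3p from -0.996 to 1.19. The last were, for miR-362-5p from -0.77 to 0.83, miR-423-5p from -1.01 to 1.25, miR-4286 from -0.26 to 0.28, miR-561-5p from -0.37 to 1.27, miR-7-5p from -0.78 to 0.35 and miR-941 from -0.96 to 0.57. The cause of these differences was not tested. Where an omission left 1 library in a culture, it was assumed to vary like the other culture. In 2D replicate 1, the shallowest library, the floor of 3 counts is 0.286 CPM, for counting error only.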
